A study of Mus musculus with 19 samples.

Results

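Pecam1, Cdh5, Kdr, Tek, Tie1, Emcn, Stab2, Lyve1, Eng and Vwf are 10 genes widely used to mark the endothelial cells that line blood and lymphatic vessels. They were chosen by symbol in the embryo table and by the matching mouse Ensembl identifier in the tumour files. All 10 were found in both, among 13549 genes of the embryo table and 17606 of the tumour files. All 10 also passed the filters on low values, which left 13316 genes tested in embryos and 12829 in tumours.

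RNA was sequenced in 2 mouse models of fibrolamellar carcinoma, which is a tumour of the liver that carries a fusion of DNAJB1 with PRKACA, the catalytic subunit of protein kinase A. The first set held livers of embryos at embryonic day 18.5, with 5 labelled as genotype control and 4 as DNAJ1B-PKA overexpression, here called fusion. In fusion embryos a DNAJB1-PRKACA-GFP cDNA in the Rosa26 locus, silent behind a stop cassette, was switched on by Alb-Cre, in which the albumin promoter drives Cre in the hepatocyte lineage. The labels do not say which alleles the control embryos carried. The second set held 10 tumours of FL8, a single mouse cell line, implanted in gelatin capsules subcutaneously in immunodeficient NSG mice. Mice were randomized when tumours averaged 75 mm3. A group of 5 received the carrier by mouth, and 5 received palbociclib, an inhibitor of CDK4 and CDK6, at 75 mg/kg for 3 days, with 4 days off. The labels name a methylcellulose carrier, whereas the series text speaks of saline buffer. Tumour cells and host are both mouse, so reads of host vessels and of FL8 cells cannot be told apart. The age of the host mice is not in the labels used here, nor is it stated whether replicates came from separate litters, so p-values measure the spread between these samples.

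Endothelial cells are held together by VE-cadherin and PECAM-1 at their junctions and read growth signals through receptor tyrosine kinases for VEGF and the angiopoietins. In the liver the capillaries are sinusoids, whose fenestrated endothelium scavenges waste such as hyaluronan through stabilin receptors and LYVE-1. Endoglin is a co-receptor for BMP9, and von Willebrand factor is stored in endothelial cells and platelets, where it serves haemostasis.

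Embryo libraries held 7.66 to 45.6 M counts (M, 1000000) and tumour libraries 2.96 to 43.1 M reads. Among the embryos, control 1, control 2, fusion 8 and fusion 9 gave 7.81% to 8.46% of their counts to ribosomal protein genes and are called the higher-share libraries. In control 3 to 5, fusion 6 and fusion 7 that share was 5.42% to 6.76%, and they are called the lower-share libraries. The labels name no batch that matches this split. Xist marked control 1, control 2 and fusion 6, 7 and 8 as female, and within the lower-share libraries genotype cannot be told apart from sex. Among the tumours, vehicle 1 stood apart with 46.6% mitochondrial reads, against 1.24% to 6.47% in the other 9. Vehicle 5 was the shallowest.

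Eng is shown by its sequence because it was one of the genes whose level separated the higher-share from the lower-share embryo libraries, and because its upstream window holds no base of an annotated gene. The window lies on the plus strand at chr2:32646345-32646594, build GRCm38.p6 of RefSeq, and covers the 250 bases before the gene start. Capitals mark the letters GGAA or TTCC, the core bound by ETS factors such as ERG and FLI1, searched on both strands.
Eng: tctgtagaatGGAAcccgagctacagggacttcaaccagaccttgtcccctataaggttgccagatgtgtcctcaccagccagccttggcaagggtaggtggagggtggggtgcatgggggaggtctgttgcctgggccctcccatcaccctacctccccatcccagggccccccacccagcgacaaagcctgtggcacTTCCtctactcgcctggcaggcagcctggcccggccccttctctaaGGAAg
The window held 3 such cores. Cores were present in 93.4% of the 32851 mouse promoter windows of this length, with a median of 3 matches, so that their presence does not set Eng apart. Windows were in the table for 6 of the 10 genes, and the others among them held 4 cores for Kdr, 2 for Tek, 7 for Tie1, 4 for Emcn and 6 for Stab2. Annotated exons covered 212 of the 250 bases for Tie1, 83 for Stab2, 11 for Emcn and 3 for Kdr. Those windows are therefore not upstream sequence alone. The letters TGACG or CGTCA, a short part of the cAMP response element bound by CREB, were in none of these 6 windows and in 17.8% of all windows. An absent match says only that these letters are not in the window.

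In the fetal liver, fusion and control embryos expressed the 10 genes at overlapping levels. None of the 10 passed an adjusted p of 0.05 in edgeR's quasi-likelihood test, in which 12.8% of all genes tested did. Cdh5 alone had an unadjusted p under 0.05, against 29.3% of all genes. DESeq2 called 0 of 10 at an adjusted p under 0.05, beside 18.4% of all genes. The log2 fold change of fusion over control was above 0 for 6 genes and below 0 for 4, with a median of 0.17 beside -0.01 over all genes tested. No gene of the 10 had groups without overlap, which 16.5% of all genes had. In bulk tissue, fewer endothelial cells and less RNA per cell cannot be told apart.

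**Figure D1:**
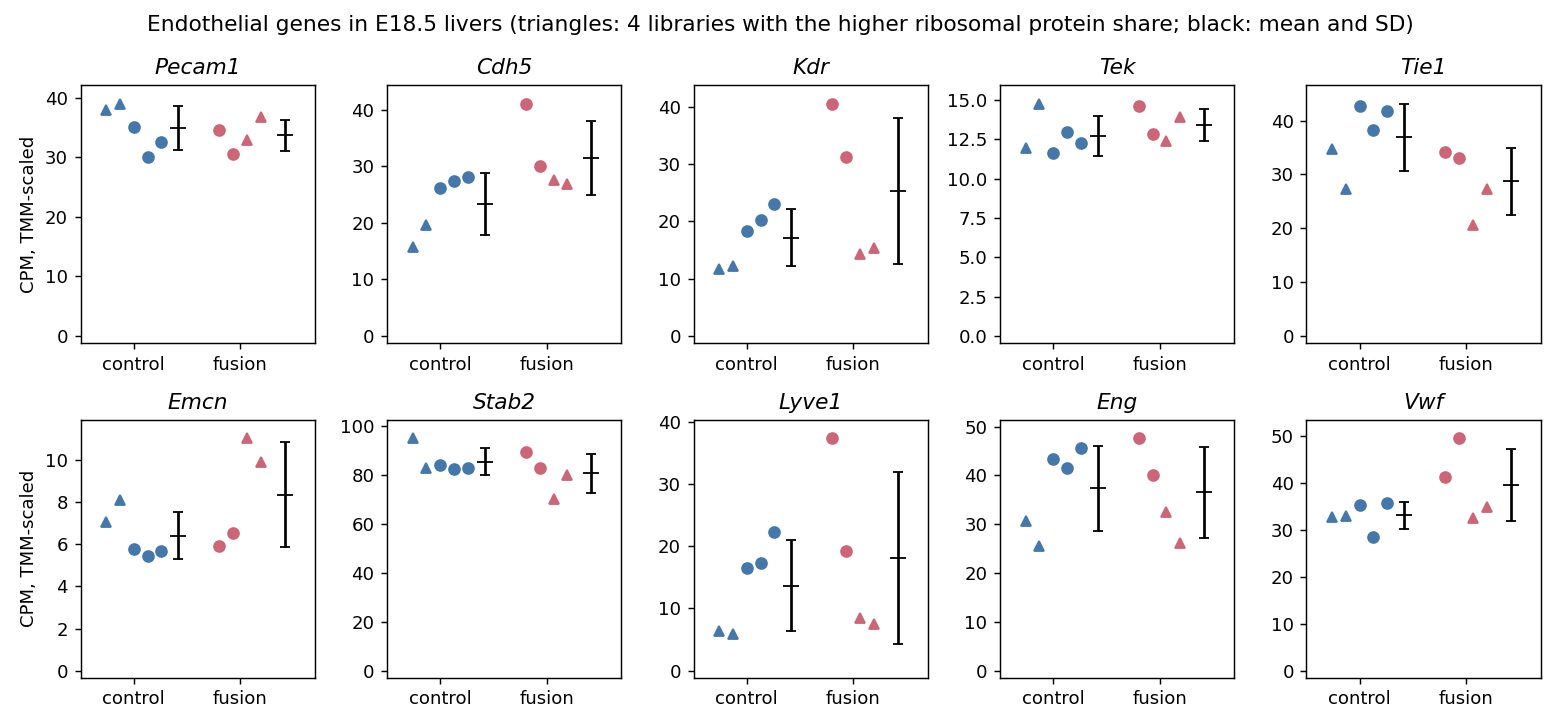
Level of each endothelial gene in 9 livers at embryonic day 18.5, in CPM (counts scaled to a total of 1000000) after TMM scaling on a linear axis; each point is a library, triangles are the 4 higher-share libraries, circles the 5 lower-share libraries, and black bars give the mean and SD of 5 control and 4 fusion livers. Lyve1, Kdr and Eng lie lower, and Emcn higher, in every triangle than in every circle, while fusion and control overlap in all 10 panels.

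The junction genes came first. Pecam1, an adhesion molecule of endothelium, platelets and leukocytes, was at 37.9, 39.0, 35.2, 30.1 and 32.6 CPM in control 1 to 5 and at 34.5, 30.6, 33.0 and 36.8 CPM in fusion 6 to 9. Both groups covered the same narrow span. Its log2 ratio of fusion over control, here the log2 fold change, was -0.05 ± 0.11 (SE) with edgeR adjusted p = 0.805. Cdh5, which encodes VE-cadherin of endothelial junctions, was at 15.7, 19.7, 26.2, 27.3 and 28.1 CPM in control 1 to 5 and at 41.1, 30.1, 27.7 and 26.9 CPM in fusion 6 to 9. The 2 lowest values were control 1 and control 2, the highest was fusion 6, and the groups overlapped between 26.9 and 28.1 CPM. For Cdh5 the log2 fold change was 0.43 ± 0.19 (SE) with edgeR adjusted p = 0.164.

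Among the receptor kinases, Kdr, the main VEGF receptor for vessel growth, was at 11.7, 12.3, 18.3, 20.3 and 23.1 CPM in control 1 to 5 and at 40.5, 31.2, 14.3 and 15.3 CPM in fusion 6 to 9. Fusion 6 and fusion 7 lay above every control, and fusion 8 and fusion 9 below control 3 to 5. Its log2 fold change was 0.56 ± 0.32 (SE) with edgeR adjusted p = 0.263. Tek, the angiopoietin receptor TIE2, stayed between 11.6 and 14.8 CPM in control and between 12.4 and 14.6 CPM in fusion livers. For Tek the log2 fold change came to 0.09 ± 0.12 (SE) with edgeR adjusted p = 0.662, with the fusion range inside the control range. Tie1, the orphan receptor that pairs with TIE2, was at 34.8, 27.3, 42.7, 38.2 and 41.8 CPM in control 1 to 5 and at 34.2, 33.0, 20.6 and 27.2 CPM in fusion 6 to 9. The 3 highest values were controls and the lowest was fusion 8, with overlap in between. Its log2 fold change was -0.36 ± 0.17 (SE) with edgeR adjusted p = 0.186.

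The sialomucin and scavenger genes differed in how stable they were. Emcn, a sialomucin of capillary and venous endothelium, was at 7.07, 8.09, 5.78, 5.47 and 5.67 CPM in control 1 to 5 and at 5.94, 6.53, 11.0 and 9.92 CPM in fusion 6 to 9. Fusion 8 and fusion 9 were the 2 highest libraries, and the other fusion livers lay among the controls (log2 fold change 0.38 ± 0.21 SE; edgeR adjusted p = 0.256). Stab2, the hyaluronan receptor of liver sinusoids, was at 95.0, 82.7, 84.3, 82.4 and 82.8 CPM in control 1 to 5 and at 89.4, 82.7, 70.4 and 80.0 CPM in fusion 6 to 9. Apart from control 1 the controls lay within 2 CPM of each other, and the fusion livers spread on both sides of them. Stab2 had a log2 fold change of -0.08 ± 0.11 (SE) with edgeR adjusted p = 0.654.

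Lyve1, a hyaluronan receptor of lymphatic and sinusoidal endothelium that some macrophages also express, varied most. It was at 6.36, 5.86, 16.5, 17.3 and 22.3 CPM in control 1 to 5 and at 37.3, 19.2, 8.43 and 7.46 CPM in fusion 6 to 9. Low and high libraries were present in both groups, and fusion 6 was the highest. Lyve1 had a log2 fold change of 0.40 ± 0.50 (SE) with edgeR adjusted p = 0.635, and without fusion 6 it turned to -0.24.

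Eng, which encodes endoglin, was at 30.7, 25.5, 43.5, 41.6 and 45.6 CPM in control 1 to 5 and at 47.6, 40.1, 32.4 and 26.2 CPM in fusion 6 to 9. Its values fell into a low and a high set with both genotypes in each, and the log2 fold change was -0.03 ± 0.21 (SE) with edgeR adjusted p = 0.938. Vwf, which encodes von Willebrand factor, was at 32.7, 33.0, 35.4, 28.6 and 35.7 CPM in control 1 to 5 and at 41.4, 49.5, 32.5 and 34.8 CPM in fusion 6 to 9. Fusion 6 and fusion 7 were above all controls and the other fusion livers among them. Its log2 fold change was 0.26 ± 0.14 (SE) with edgeR adjusted p = 0.229.

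The split by ribosomal protein share separated several of these genes more sharply than genotype did. In 4 of the 10 genes the higher-share and lower-share libraries did not overlap, which was so for 20.3% of all genes. Lyve1 averaged 7.03 CPM in the 4 higher-share and 22.5 CPM in the 5 lower-share libraries. Kdr averaged 13.4 and 26.7 CPM, and Eng 28.7 and 43.7 CPM. Emcn went the other way, with 9.03 CPM in the higher-share and 5.88 CPM in the lower-share libraries. Tek, at means of 13.3 and 12.9 CPM, and Stab2, at 70.4 to 95.0 and 82.4 to 89.4 CPM, overlapped between the sets. The sum of the 10 genes was 263 to 284 CPM in the higher-share and 304 to 387 CPM in the lower-share libraries. Other endothelial genes did not share that direction. Summed over 20 other pan-endothelial genes the sets held 417 to 500 and 386 to 426 CPM. Summed over 16 sinusoidal genes they held 430 to 489 and 414 to 469 CPM. The summed erythroid markers also separated the sets, at 4396 to 5570 CPM in the higher-share and 3147 to 4207 CPM in the lower-share libraries, as did summed hepatocyte markers at 157083 to 173554 and 180773 to 201139 CPM. The part of cell composition in these differences was not tested.

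With that split as a covariate, 4 of the 10 genes passed the adjusted threshold, beside 32.6% of all genes. Cdh5 was higher in fusion livers by 0.50 ± 0.11 on the log2 scale (SE; edgeR adjusted p = 0.00488). Kdr was higher by 0.61 ± 0.13 (edgeR adjusted p = 0.00311) and Lyve1 by 0.52 ± 0.18 (edgeR adjusted p = 0.0381). Tie1 was lower, with -0.33 ± 0.11 (edgeR adjusted p = 0.0296). With sex added as a second covariate, an alternative chosen after seeing the data, Cdh5 (edgeR adjusted p = 0.00563) and Kdr (0.00907) passed, while Tie1 (0.0577) and Lyve1 (0.115) did not, and 30.4% of all genes passed. Fusion 8 was the only fusion liver with controls of its own sex in its own set. The separation of genotype from sex in this fit therefore rests on few libraries.

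Within each set the sizes differed from gene to gene. In the lower-share libraries every control was male and every fusion liver female. The fusion differences given for that set therefore cannot be told apart from differences of sex. In the lower-share libraries 2 of the 10 passed, beside 21.8% of all genes, and in the higher-share libraries 1 of 10, beside 20% of all genes. Kdr was higher in fusion livers by 0.81 in the lower-share libraries (edgeR adjusted p = 0.00414), and its log2 fold change was 0.32 in the higher-share libraries (0.208). Cdh5 was higher by 0.65 in the higher-share libraries (edgeR adjusted p = 0.0239), and its log2 fold change was 0.40 in the lower-share libraries (0.0609). Vwf was higher by 0.45 in the lower-share libraries (edgeR adjusted p = 0.0387), and its log2 fold change was 0.05 in the others (0.845). None of the 10 passed the adjusted threshold in an interaction test of fusion and set, as 25 of 13316 genes did. With 9 libraries, and with genotype and sex not separable in the lower-share set, this does not show that the effects were equal. Kdr had the smallest interaction p among the 10, 0.0432 before and 0.278 after adjustment in edgeR. Of the 13316 genes, 2255 had an unadjusted interaction p under 0.05.

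**Figure D2:**
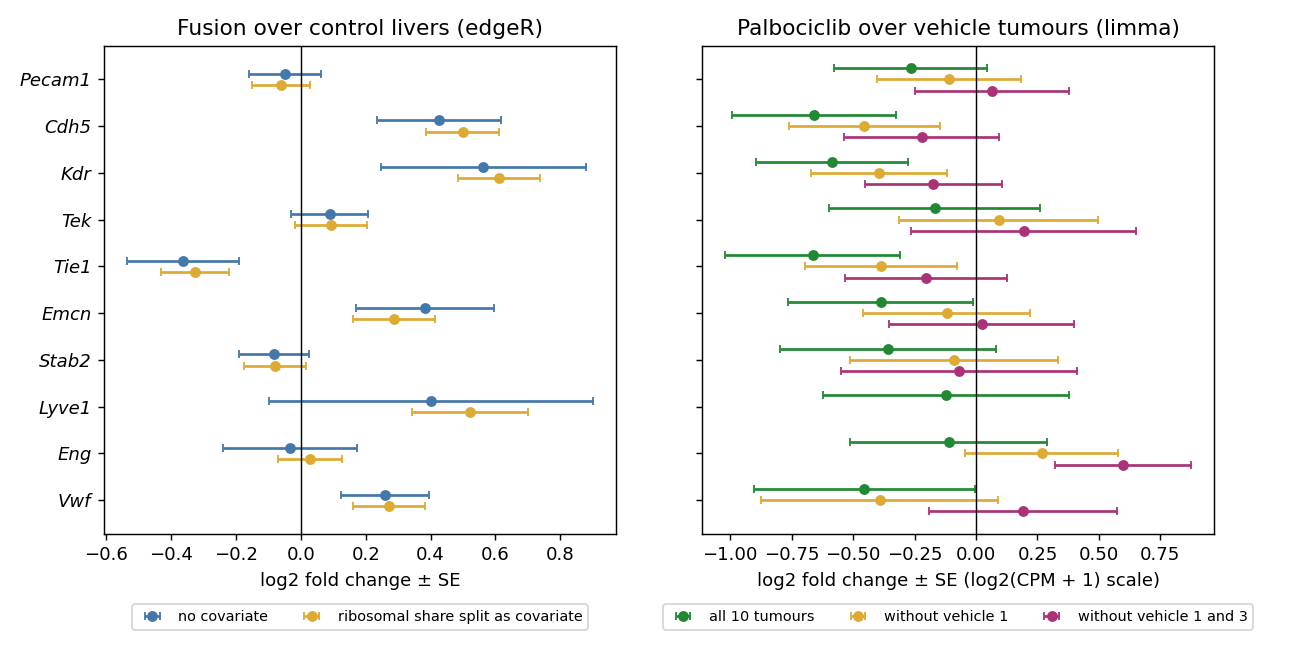
Log2 fold changes with standard errors of the 10 endothelial genes; left, fusion over control livers without and with the split by ribosomal protein share as a covariate; right, palbociclib over vehicle tumours with all 10 tumours, without vehicle 1, and without vehicle 1 and 3. The covariate narrows the errors of Cdh5, Kdr and Lyve1 and leaves their direction, whereas the tumour values move towards 0 or past it as vehicle libraries are left out; Lyve1 fell under the filter without vehicle 1.

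Other endothelial genes of the fetal liver were described from lists. Of 20 further pan-endothelial genes, 3 were higher and 1 lower in fusion livers, beside 12.8% of all genes called. The list median was 0.05 on the log2 scale beside -0.01 over all genes. The 3 were Adgrl4, an adhesion receptor, Calcrl, the adrenomedullin receptor, and Clec14a, a lectin of vessels. Adgrl4 was at 4.84 CPM in control livers and had a log2 fold change of 0.81 ± 0.16 (SE) with edgeR adjusted p = 0.00759. Calcrl had 0.75 ± 0.16 (edgeR adjusted p = 0.0122) and Clec14a 0.59 ± 0.13 (edgeR adjusted p = 0.0134). The gene that was lower was Plvap, the diaphragm protein of fenestrae, at -0.55 ± 0.15 (edgeR adjusted p = 0.0313), which the naming rule did not cover and which was picked after its value was seen.

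Beside 12.8% of all genes called, 1 of 12 genes was higher and 0 lower in the VEGF list of ligands, further receptors and response genes. That was Esm1, a secreted proteoglycan of tip cells that VEGF induces, which was at 0.0822 to 0.892 CPM in control and 1.10 to 3.42 CPM in fusion livers. Every fusion liver lay above every control, with a log2 fold change of 2.24 ± 0.51 (SE) with edgeR adjusted p = 0.0167, although 4 controls held 2 to 8 counts. Vegfa, the ligand of Kdr, had 0.26 ± 0.23 (edgeR adjusted p = 0.481) and Flt1, the decoy VEGF receptor, 0.47 ± 0.20 (edgeR adjusted p = 0.146). Vegfa was highest in fusion 6 and fusion 7, at 87.3 and 76.2 CPM, the same libraries in which Kdr was highest. These are the lower-share fusion livers, in which genotype cannot be told apart from sex. Like Kdr, Vegfa did not overlap between the sets, at 38.5 to 45.6 CPM in the higher-share and 55.7 to 87.3 CPM in the lower-share libraries.

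The partners of the other receptors did not pass the threshold. Angpt1 and Angpt2, the ligands of TIE2, had log2 fold changes of 0.36 ± 0.25 and 0.38 ± 0.20 (edgeR adjusted p = 0.373 and 0.229). Ptprb, the phosphatase that dampens TIE2, had 0.11 ± 0.14 (edgeR adjusted p = 0.642). Acvrl1, the BMP9 receptor ALK1 that works with endoglin, had -0.20 ± 0.13 (edgeR adjusted p = 0.335). Gdf2, which encodes BMP9, had -0.50 ± 0.20 (edgeR adjusted p = 0.128), and with the ribosomal share as a covariate it was lower, at -0.56 (edgeR adjusted p = 0.00195). Stab1, the sister of Stab2, was at 120 to 183 CPM in control and 102 to 108 CPM in fusion livers with no overlap, and had -0.51 ± 0.15 (edgeR adjusted p = 0.0503). Erg, an ETS factor of endothelium, had 0.32 ± 0.21 (edgeR adjusted p = 0.328).

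The counts that follow stand beside 12.8% of all genes called. Of 13 endothelial transcription factors 1 was higher, Sox18, at 0.62 ± 0.17 (SE) with edgeR adjusted p = 0.0345. Of 16 liver sinusoidal genes 1 was lower, Gata4, a factor of sinusoidal identity that stellate cells also express, at -0.60 ± 0.14 (edgeR adjusted p = 0.0161). In that list 10 genes were above 0 and 6 below, with a median of 0.06. Among 10 arterial, venous and tip cell genes Esm1 was higher and Unc5b, a netrin receptor, lower at -0.80 ± 0.15 (edgeR adjusted p = 0.00670). Of 5 lymphatic markers 1 was lower, Reln, at -0.56 ± 0.13 (edgeR adjusted p = 0.0168), a gene that liver stellate cells also express. None of the 4 angiopoietin, 13 endoglin and BMP9, 8 Notch, 4 hyaluronan, 8 von Willebrand and 4 activation genes passed the adjusted threshold. At an unadjusted p under 0.05 those counts were 0, 2, 1, 0, 2 and 0, beside 29.3% of all genes. In the Notch list Dll4, a tip cell ligand, had the smallest p, with a log2 fold change of 0.55 ± 0.21 (edgeR adjusted p = 0.106).

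The calls in these lists changed when the split by ribosomal protein share was a covariate, the fit in which 32.6% of all genes passed. Of the 20 further pan-endothelial genes 4 were then higher and 4 lower, and of the 13 transcription factors 5 were higher and 1 lower. The 12 VEGF genes held 5 higher and 1 lower, and the 16 sinusoidal genes 3 higher and 4 lower. Of the 13 endoglin and BMP9 genes 1 was higher and 1 lower, of the 8 Notch genes 1 was higher, of the 8 von Willebrand genes 2 were lower, and of the 5 lymphatic markers 2 were lower. The 10 arterial, venous and tip cell genes held 1 higher and 1 lower, and the angiopoietin, hyaluronan and activation lists held 0.

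Markers of other liver cells were measured beside these genes. Of 10 fibroblast and stellate markers 3 were lower in fusion livers, Reln, Col1a1 at -0.80 ± 0.20 (SE) with edgeR adjusted p = 0.0227 and Col1a2 at -0.57 ± 0.17 (edgeR adjusted p = 0.0467). Their summed level was 804 to 930 CPM in control and 518 to 769 CPM in fusion livers. Summed macrophage markers were 1171 to 1509 and 1015 to 1213 CPM, and summed platelet markers 398 to 607 and 301 to 510 CPM, with 0 of 12 and 0 of 11 genes called and 2 and 4 lower at an unadjusted p under 0.05. With the ribosomal share as a covariate 5 fibroblast and stellate, 4 macrophage and 5 platelet markers were lower, beside 32.6% of all genes called. Without it 12.8% of all genes were called, and 29.3% had an unadjusted p under 0.05. The part of these cells in the levels of Lyve1, Pecam1 and Vwf was not tested.

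In the tumours, all 10 genes were detected and all 10 had a lower mean after palbociclib, but none passed the threshold. Lyve1, at 3.60 CPM in vehicle 1, fell under the filter of 1 CPM when that tumour was left out. Its place among the 10 genes tested therefore rests in part on that tumour. In limma on log2(CPM + 1), 0 of 10 genes had an adjusted p under 0.05, and the share over all genes was 0%. None of the 10 had an unadjusted p under 0.05, against 4.57% of all genes. On the reads recovered from CPM, edgeR and DESeq2 called 0 of 10 each at an adjusted p under 0.05, beside 0% and 0.0468% of all genes. Cdh5, Kdr and Tie1 had an unadjusted p under 0.05 in both, 3 of 10 beside 5.38% of all genes in edgeR and 5.93% in DESeq2. When vehicle 1 was left out of the edgeR fit on reads, an alternative chosen after seeing the data, 0 of 10 had such a p, beside 4.59% of all genes. Every gene of the 10 had overlapping groups, while 0.935% of all genes did not overlap. The median log2 fold change was -0.37 beside 0.14 over all genes, of which 31.2% were below 0. The median was further from 0 on the recovered reads, at -0.87 in edgeR and -0.90 in DESeq2, beside -0.05 and -0.07 over all genes. In limma it was -0.52, beside 0.01 over all genes, when mitochondrial genes were left out of the totals.

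Much of that direction rested on vehicle 1, the library with the high mitochondrial share. It was the highest of all 10 tumours for 9 of the 10 genes. Without it, 7 of 9 genes tested were below 0, as were 45.7% of all genes, and the median was -0.12 beside 0.03 over all genes. Without vehicle 1 and vehicle 3, an alternative chosen after seeing the data, 4 of 9 were below 0 and the median was 0.02. In edgeR on reads without vehicle 1, 6 of 10 were below 0 and the median was -0.13. Scaling by TMM shifted the median of all genes from 0.14 to 0.01 and that of the 10 genes from -0.37 to -0.50, with all 10 still below 0.

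**Figure D3:**
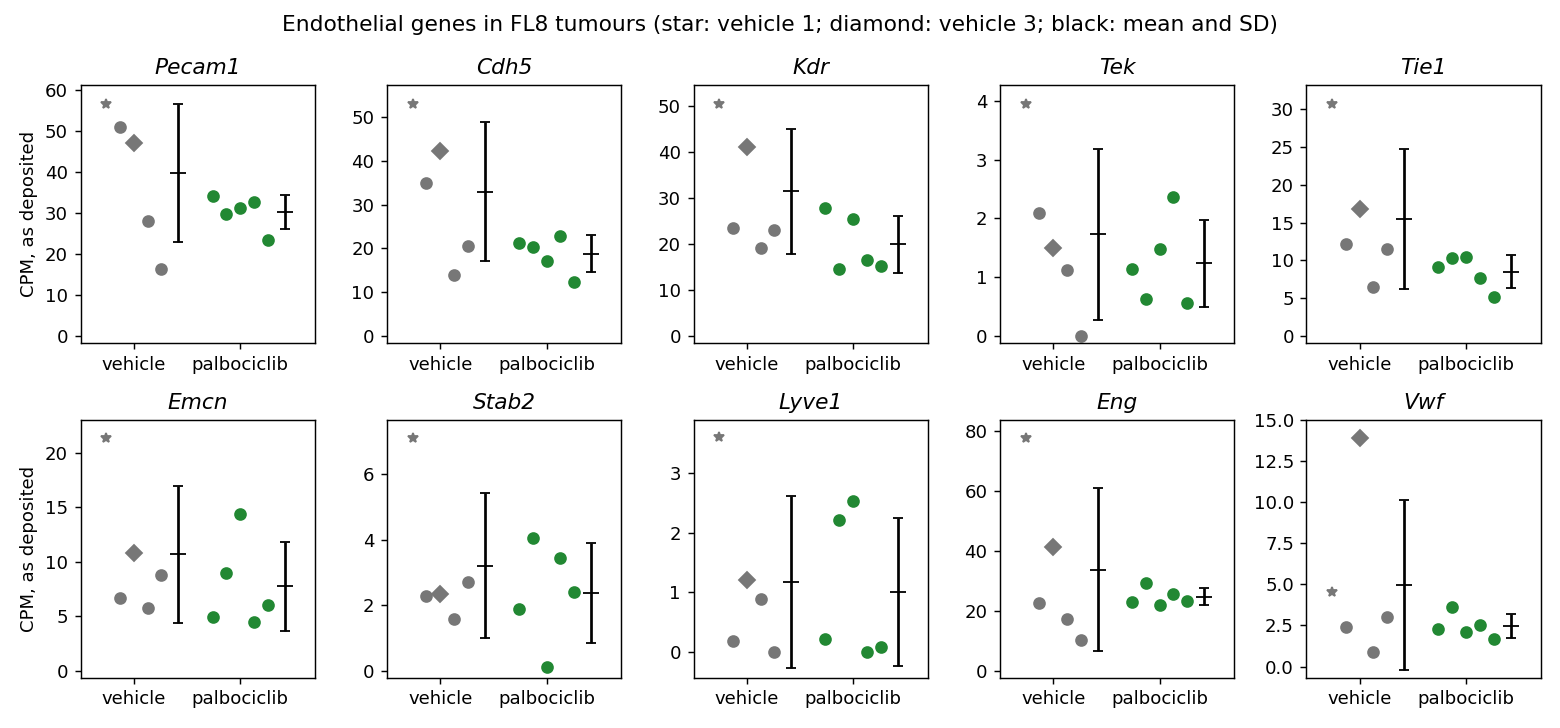
Level of each endothelial gene in 10 FL8 tumours, in CPM as deposited on a linear axis; each point is a tumour, the star is vehicle 1, the diamond vehicle 3, and black bars give the mean and SD of 5 vehicle and 5 palbociclib tumours. The star is the highest point in every panel but that of Vwf, where the diamond is, and the vehicle bars are longer than the palbociclib bars in all 10 panels.

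Pecam1 was at 56.6, 51.0, 47.1, 28.1 and 16.2 CPM in vehicle 1 to 5 and at 34.2, 29.7, 31.4, 32.7 and 23.5 CPM in palbociclib 1 to 5. The vehicle tumours reached both above and below all palbociclib tumours. Its log2 fold change was -0.27 ± 0.31 (SE) with limma adjusted p = 0.957. Cdh5 was at 53.1, 34.9, 42.3, 13.9 and 20.6 CPM in vehicle 1 to 5 and at 21.3, 20.4, 17.2, 22.9 and 12.4 CPM in palbociclib 1 to 5. Vehicle 1 to 3 lay above every palbociclib tumour, and vehicle 4 and 5 among them. Cdh5 had a log2 fold change of -0.66 ± 0.33 (SE) with limma adjusted p = 0.953, and -0.45 ± 0.31 without vehicle 1.

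Kdr was at 50.6, 23.4, 41.1, 19.2 and 23.0 CPM in vehicle 1 to 5 and at 27.9, 14.5, 25.4, 16.6 and 15.2 CPM in palbociclib 1 to 5. Only vehicle 1 and vehicle 3 lay above the palbociclib range. The log2 fold change was -0.59 ± 0.31 (SE) with limma adjusted p = 0.953, and -0.39 ± 0.28 without vehicle 1. Tie1 was at 30.7, 12.1, 16.8, 6.42 and 11.5 CPM in vehicle 1 to 5 and at 9.07, 10.4, 10.4, 7.60 and 5.11 CPM in palbociclib 1 to 5. All vehicle tumours but vehicle 4 lay above the palbociclib range, with a log2 fold change of -0.66 ± 0.36 (SE) with limma adjusted p = 0.953, and -0.39 ± 0.31 without vehicle 1. Tek was low in all tumours, at 3.96, 2.09, 1.49, 1.13 and 0 CPM in vehicle 1 to 5 and at 0.563 to 2.36 CPM after palbociclib. The 0 in vehicle 5, at 2.96 M reads, allows up to 1.01 CPM (3 reads, counting error only), and the log2 fold change of Tek was -0.17 ± 0.43 (limma adjusted p = 0.970).

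Eng was at 77.7, 22.7, 41.3, 17.3 and 10.1 CPM in vehicle 1 to 5 and at 23.1, 29.3, 22.1, 25.8 and 23.4 CPM in palbociclib 1 to 5. Palbociclib tumours lay in a narrow band inside the wide vehicle range. Its log2 fold change was -0.11 ± 0.40 (SE) with limma adjusted p = 0.980 and turned to 0.27 ± 0.31 without vehicle 1. Without vehicle 1 and 3 it was 0.60 ± 0.28, with an unadjusted p of 0.0490 and a limma adjusted p of 0.985.

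Emcn was at 21.4, 6.64, 10.9, 5.77 and 8.80 CPM in vehicle 1 to 5 and at 4.91, 8.98, 14.4, 4.50 and 6.03 CPM in palbociclib 1 to 5. Apart from vehicle 1 the groups were intermixed (log2 fold change -0.39 ± 0.38 SE; limma adjusted p = 0.953). Stab2 was at 7.09, 2.28, 2.34, 1.57 and 2.71 CPM in vehicle 1 to 5 and at 1.88, 4.05, 0.110, 3.43 and 2.41 CPM in palbociclib 1 to 5. Vehicle 1 was again the highest, the others intermixed (log2 fold change -0.36 ± 0.44 SE; limma adjusted p = 0.958). Lyve1 was at 3.60, 0.190, 1.21, 0.888 and 0 CPM in vehicle 1 to 5 and at 0.228, 2.21, 2.52, 0 and 0.0805 CPM in palbociclib 1 to 5. High and near-empty tumours were present in both groups, and the log2 fold change was -0.12 ± 0.50 (SE) with limma adjusted p = 0.982.

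Vwf was at 4.52, 2.42, 13.9, 0.888 and 3.04 CPM in vehicle 1 to 5 and at 2.28, 3.63, 2.08, 2.53 and 1.69 CPM in palbociclib 1 to 5. Vehicle 3 stood far above the other 9 tumours. Vwf had a log2 fold change of -0.45 ± 0.45 (SE) with limma adjusted p = 0.953, and -0.03 without vehicle 3.

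The spread of the 10 genes differed in size between the groups of tumours. The SD of all 10 genes was larger in vehicle than in palbociclib tumours, for example 27.1 against 2.89 CPM for Eng and 15.9 against 4.15 CPM for Cdh5, and without vehicle 1 it was larger for 7 of the 10. The share over all genes was not counted. Outside the 10, the SD was also larger in vehicle tumours for Farp1 (23.6 against 4.03 CPM) and Dsp (31.7 against 10.8 CPM). It was smaller for Hmmr (2.20 against 6.62 CPM) and Cidec (1.07 against 1.64 CPM). The larger spread is therefore not shown to be a trait of the 10 genes. The vehicle group also held vehicle 1 and the shallow vehicle 5. This difference in spread was not tested.

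Markers of blood and immune cells were also highest in vehicle 1 or vehicle 3. Summed over 11 macrophage markers, vehicle 1 held 1497 CPM and the other 9 tumours 71.4 to 181 CPM, with 0 to 4 of the 11 at 0 in these 9. Summed over 11 platelet markers, vehicle 3 held 129 CPM and the others 8.46 to 81.7 CPM. Summed over 8 erythroid markers, vehicle 3 held 49130 CPM and the other vehicle tumours 1075 to 20192 CPM, against 1109 to 5545 CPM after palbociclib. Their part in the levels of the endothelial genes was not tested. Vcam1, an adhesion molecule of activated endothelium and of some macrophages, was at 134 CPM in vehicle 1 and 4.17 to 12.5 CPM in the other tumours.

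**Figure D4:**
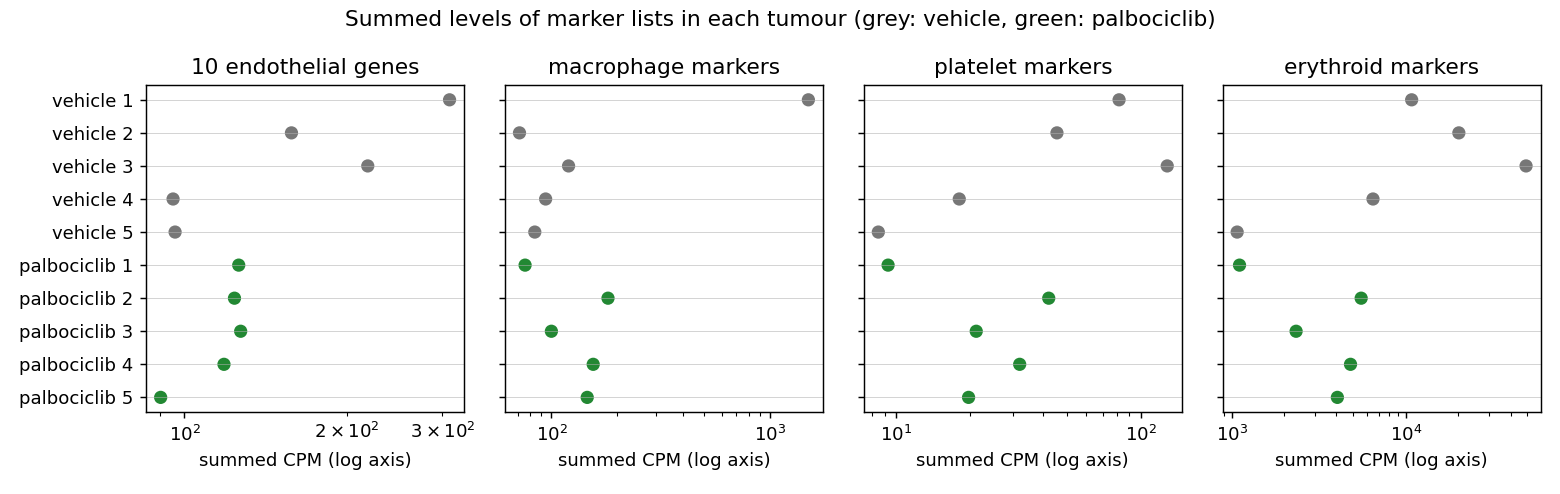
Summed CPM of the 10 endothelial genes and of macrophage, platelet and erythroid marker lists in each of 10 tumours, on log axes; each point is 1 tumour, grey for vehicle and green for palbociclib. Vehicle 1 is highest in endothelial and macrophage sums, and vehicle 3 is second in endothelial and highest in platelet and erythroid sums.

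In the tumours, 6 further endothelial lists differed in their share of genes below 0. Over all genes 31.2% were below 0, with a median of 0.14, and without vehicle 1 45.7%, with a median of 0.03. Of 20 further pan-endothelial genes 17 were below 0, with a median of -0.40, and without vehicle 1 there were 12 of 20, with a median of -0.07. Of 12 endothelial transcription factors 11 were below 0, with a median of -0.57, and without vehicle 1 there were 8, with a median of -0.37. Of 12 VEGF genes 9 were below 0, with a median of -0.34, and without vehicle 1 there were 8, with a median of -0.18. These 3 lists had medians nearer to 0 without that library, as had the arterial and sinusoidal lists given below. Of 9 Notch genes 7 were below 0, with a median of -0.39, and without vehicle 1 there were 8, with a median of -0.40. Of 9 arterial, venous and tip cell genes 7 were below 0 with and without vehicle 1, at medians of -0.43 and -0.27. The 9 sinusoidal genes tested were divided, with 5 below 0 and a median of -0.01, and 4 below 0 and a median of 0.00 without vehicle 1. In limma 0 genes of these 6 lists passed the adjusted threshold with all 10 tumours. At an unadjusted p under 0.05 the counts were 0, 3, 0, 1, 0 and 0 in this order, beside 4.57% of all genes. In the Notch list that gene was Nrarp, a Notch target, at -0.88 ± 0.35 (limma adjusted p = 0.953). Klf2, the factor induced by blood flow, had -1.16 ± 0.43 (limma adjusted p = 0.953), with 40.2 CPM in vehicle 1 and 3.38 to 8.80 CPM in the others. The 5 hyaluronan genes tested were all above 0, with a median of 0.35 beside 0.14 over all genes. They were led by Hmmr, a hyaluronan receptor that dividing cells express, at 1.24 ± 0.36 (limma adjusted p = 0.953).

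Among the direct partners, Vegfa was at 122, 1249, 692, 310 and 484 CPM in vehicle 1 to 5 and 145 to 623 CPM after palbociclib. In CPM as deposited, vehicle 1, the highest in Kdr, was the lowest in Vegfa. Mitochondrial reads made up 46.6% of that library, which lowers the CPM of its other genes. The part of this in its Vegfa level was not tested. The log2 fold change of Vegfa was -0.45 ± 0.52 (limma adjusted p = 0.954) and -0.91 ± 0.44 without vehicle 1. Flt1 had -0.41 ± 0.36, Angpt2 -0.67 ± 0.37, Acvrl1 -0.78 ± 0.36, Ptprb -0.04 ± 0.50, Stab1 -0.32 ± 0.30 and Erg -0.01 ± 0.38, none past the threshold. Angpt1 was under the filter, and Gdf2 was not analysed here.

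Per length of transcript the 10 genes had a different order in liver and tumour. In control livers the mean level per kilobase of exon was highest for Stab2, at 9.75 ± 0.62 CPM per kilobase (SD, n = 5), and Eng, at 9.23 ± 2.16. Tie1 followed at 7.52 ± 1.27, then Pecam1 at 5.62 ± 0.59, Cdh5 at 5.56 ± 1.29 and Lyve1 at 4.69 ± 2.49. Tek was at 2.70 ± 0.27, Vwf at 2.06 ± 0.18, Kdr at 1.90 ± 0.55 and Emcn at 1.19 ± 0.21. Of the neighbours in this order, Tek and Vwf alone had ranges that did not overlap.

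In vehicle tumours the order of mean levels per kilobase of exon was led by Eng, at 8.36 ± 6.70 CPM per kilobase (SD, n = 5), Cdh5, at 7.85 ± 3.78, and Pecam1, at 6.39 ± 2.73. Kdr was at 3.48 ± 1.51, Tie1 at 3.16 ± 1.89 and Emcn at 1.98 ± 1.16. Lyve1, Tek, Stab2 and Vwf came last, at 0.308 to 0.403 CPM per kilobase, with ranges that overlapped. In palbociclib tumours the same 4 genes came last, at 0.152 to 0.345. The order in vehicle tumours rested in part on vehicle 1. Without it Cdh5 led, at 6.65 ± 3.08 CPM per kilobase (SD, n = 4), before Pecam1 at 5.72 ± 2.62 and Eng at 5.65 ± 3.29. Kdr, Tie1 and Emcn followed at 2.95, 2.38 and 1.48, and among the last 4 Vwf was at 0.315, Stab2 at 0.254, Tek at 0.250 and Lyve1 at 0.196.

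Within a library, the level of Stab2 per kilobase was 1.51 to 1.95 times that of Pecam1 in the 9 livers and 0.00249 to 0.119 times that of Pecam1 in the 10 tumours. For Tek the ratio to Pecam1 was 0.416 to 0.570 in livers and 0 to 0.0955 in tumours, and for Vwf it was 0.328 to 0.629 and 0.0123 to 0.115. In all 3 genes every liver lay above every tumour. Lyve1, whose ratio was not computed, was at 0 to 3.60 CPM in tumours and at 5.86 to 37.3 CPM in livers. The tables were normalized separately and the libraries prepared differently, poly-A RNA in embryos and total RNA in tumours per the labels. The part of this in the ratios and levels was not tested.

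**Figure D5:**
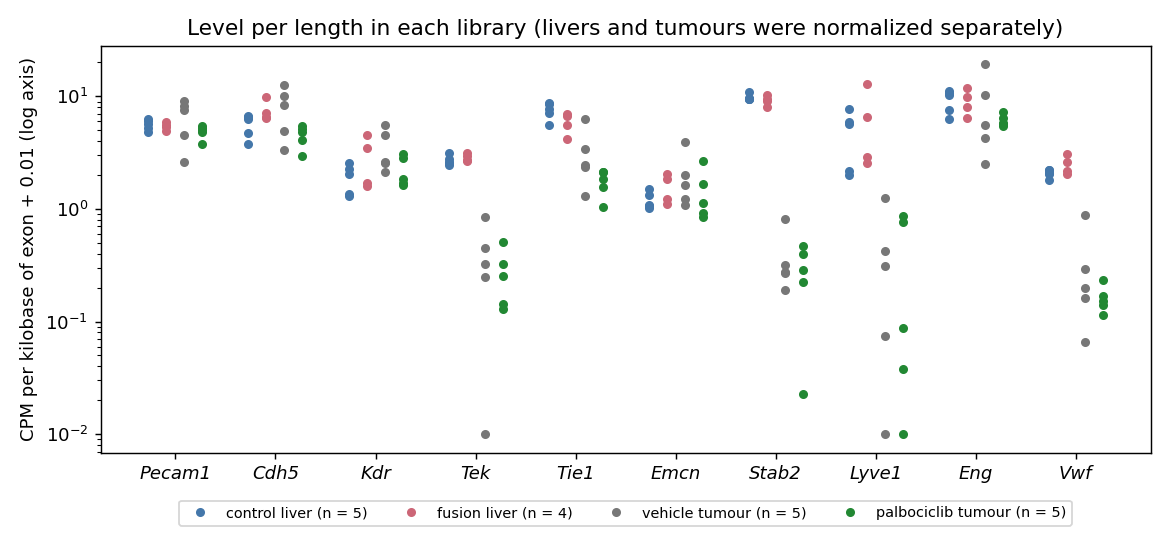
Level of each endothelial gene in CPM per kilobase of exon, with 0.01 added, on a log axis, in 5 control livers, 4 fusion livers, 5 vehicle and 5 palbociclib tumours; each point is a library. Pecam1, Cdh5, Eng and Emcn reach like levels in livers and tumours, while Tek, Stab2, Lyve1 and Vwf lie lower in every tumour than in any liver.

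The genes whose log2 level followed the mean of the 10 most closely are given as a description. Across the 9 livers they were Dync1li1, Farp1, Urad, Elmo2 and Nr5a2, with Pearson correlations of 0.98 to 0.99, and these points share the split by ribosomal protein share. Across the 10 tumours they were Plvap at 0.97, Hlx at 0.96, Adam12 and Plxdc2 at 0.95, and Arhgap45 at 0.94, and these points share the high values of vehicle 1. Without vehicle 1 they were Adam12, Nid2, Fam213a, Plvap and Zfp386, at 0.92 to 0.96 over 9 tumours.

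The 10 genes lie on 9 chromosomes in the GENCODE annotation of GRCm38, with Tek (94739289 to 94874976) and Tie1 (118471191 to 118490061) both on chromosome 4. Exons of Stab2 (chromosome 10, 86841198 to 87008025) share 141 bases with the antisense gene Gm16268, and exons of Eng (chromosome 2, 32646595 to 32682669) share 61 bases with Fpgs on the opposite strand. Whether counting used strand is not given in the sources used here, so a small share of reads of these 2 genes is uncertain. The other 8 share no exon base with another gene.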

How the data were processed

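Counts per gene symbol were deposited by the authors for the embryo livers. CPM (reads scaled to a total of 1000000 per library) were deposited by the authors for the tumours. Per the submitters' processing notes, the tumour tools were cutadapt 2.10, HISAT2, featureCounts, DESeq2 and R 4.1.2, the embryo tools STAR 2.5.1b and DESeq2, and the build mm10. All tumour values (100%) were whole multiples of the value of 1 read, within 0.01 read, and were turned back into reads for the edgeR and DESeq2 alternatives. Another 9 columns of per-sample values were not used.

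Embryo counts were tested with edgeR 4.0.16 (quasi-likelihood, TMM, filterByExpr) and tumours with limma 3.58.1 (empirical Bayes with trend) on log2(CPM + 1), leaving out genes whose mean was under 1 CPM, in R 4.3.3, with DESeq2 1.42.0 as an alternative. The added 1 makes tumour fold changes of genes with low CPM too small. P-values were adjusted over all genes tested (Benjamini-Hochberg, threshold 0.05). Embryo levels are CPM after TMM scaling. The split by ribosomal protein share lies at the largest gap between libraries over 90 Rpl and Rps genes. Exon lengths come from GENCODE M21. A count of 3 was the floor, at 0.0658 to 0.392 CPM in embryo and 0.0695 to 1.01 CPM in tumour libraries, for counting error only. No pair of libraries of a group agreed within counting noise (lowest chi-square per degree of freedom 12.5).

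The 10 genes and all lists were chosen with earlier results of these data known. The 10 genes and 9 partners were always named. From each list at most 3 genes past the threshold were named, by smallest p, or the 1 with the smallest p where none passed, and the 5 genes most correlated with the mean of the 10. The gene named by this rule in 1 list is not reported here. On simulated data with 4-fold changes, edgeR recovered 200 of 200 changed genes in the embryo design (8 unchanged genes called among 13279), and limma 116 of 187 in the tumour design (10 unchanged called among 12837). Smaller changes, such as those of the 10 genes in embryos and in tumours, were not simulated. These recoveries therefore do not show that changes of that size would be called.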

Additional observations from a re-analysis of the deposited data

Results flagged for a closer look

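Of 80 sets of 4 or 5 values examined (each gene, several marker sums and library measures in each group), 9 held a library far from the others of its group, where chance gives about 1 in 20 sets. Of these 9, 5 were vehicle 1: Stab2 at 7.09 CPM, summed sinusoidal genes at 490 CPM, summed macrophage markers at 1497 CPM, summed hepatocyte markers at 34428 CPM, the lowest of its group, and mitochondrial reads at 46.6%. That mitochondrial share lowers the CPM of all other genes in vehicle 1, and its part in the hepatocyte sum was not tested. In the other sets, control 1 had Stab2 at 95.0 CPM, vehicle 3 had Vwf at 13.9 CPM, palbociclib 5 had the lowest sum of the 10 endothelial genes at 90.4 CPM, and fusion 6 was the deepest fusion library at 45.6 M (1000000) counts.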

How the results depend on the processing

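The count of endothelial genes past the threshold in embryo livers, 0 in edgeR, stayed at 0 in DESeq2, with other size factors and filters, with sex as a covariate and in all fits that left out 1 library. It was 4 with the ribosomal share split as a covariate, 2 with the split and sex, 2 within the lower-share and 1 within the higher-share libraries. The count over all genes, 1704, was 4345, 4051, 2950 and 2589 in those fits, and 969 to 1581 when 1 library was left out, with the lowest values without control 3 (969), fusion 8 (987) and fusion 7 (1107). The cause was not tested. In tumours DESeq2 called 8 genes over all and 0 of the 10, and all other settings called 0 and 0. With the replicate block 0 genes and 0 of the 10 passed. Same-numbered tumours did not deviate together, with correlations of -0.32 to 0.00, so the numbers were not taken as pairs.

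Several log2 fold changes near 0 changed sign. In embryos Eng was 0.028 with the split as a covariate, 0.057 with sex, 0.00011 with both, 0.014 within the lower-share and 0.058 within the higher-share libraries, and -0.18 to 0.10 when 1 library was left out. Within the lower-share libraries Pecam1 was 0.00038, Stab2 0.050 and Angpt1 -0.0090, and within the higher-share libraries Ptprb was -0.014 and Dll4 -0.094. When 1 library was left out Pecam1 ranged from -0.10 to 0.0043 and Lyve1 from -0.24 to 0.66. In tumours without vehicle 1 and 3, Pecam1 was 0.065, Tek 0.19, Emcn 0.024, Eng 0.60, Vwf 0.19, Flt1 0.089, Ptprb 0.56, Stab1 0.029 and Erg 0.36. Tek was 0.083 with a pseudocount of 0.1. In edgeR on reads without vehicle 1, Tek was 0.027, Stab2 0.14, Lyve1 0.74, Eng 0.091, Ptprb 0.30 and Erg 0.38. When 1 tumour was left out, Tek ranged from -0.49 to 0.092, Stab2 from -0.55 to 0.00097, Lyve1 from -0.35 to 0.074, Eng from -0.44 to 0.27, Ptprb from -0.43 to 0.34 and Erg from -0.23 to 0.25. Vehicle 5, the shallowest tumour, held 0 reads of Tek, 8 of Stab2, 0 of Lyve1 and 9 of Vwf.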

Other observations

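The genes with the smallest p in the remaining lists are given here as values. Of 8 haematopoietic stem and progenitor markers 6 were above 0 and 2 below in fusion livers, with a median of 0.18. Their summed level was 99.5 to 102 CPM in control and 103 to 118 CPM in fusion livers. Against that direction, the transcription factor Hlf of this list was lower, at -0.73 ± 0.13 on the log2 scale (SE; edgeR adjusted p = 0.00573). Among hepatocyte genes Cps1, of the urea cycle, was higher at 0.85 ± 0.18 (edgeR adjusted p = 0.0115), Afp, the fetal serum protein, higher at 0.86 ± 0.20 (edgeR adjusted p = 0.0178) and Apoa1, an apolipoprotein, lower at -0.89 ± 0.25 (edgeR adjusted p = 0.0382). In the lists in which no gene passed, log2 fold changes were -0.53 for the platelet glycoprotein Gp5, -0.36 for the macrophage gene C1qb, -0.32 for the pericyte receptor Pdgfrb, 0.43 for the muscle gene Mylpf and -0.46 for the desmosome gene Dsp. Values for Hmmr, the venous gene Ackr1, the erythroid gene Slc4a1 and the fat gene Fabp4 lay at an unadjusted p above 0.05.

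In the tumours no listed gene passed the adjusted threshold in limma. The smallest p in each list belonged to Alas2 of haem synthesis, at -2.13 ± 0.69, Clec1b of platelets, at -1.23 ± 0.47, Abcc9 of pericytes, at -0.90 ± 0.33, Actn3 of muscle, at -1.96 ± 0.47, Cidec of fat, at 1.12 ± 0.40, and Dsp of epithelia, at 0.71 ± 0.30, each with a limma adjusted p of 0.953. Adgrl4, Flt4, Gp1bb, Cxcr4, Vcam1, Cd5l, Kit, Col1a1 and Apob had the smallest p of their lists at an unadjusted p above 0.05.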
